A study of Mus musculus with 6 samples.

Results

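The genes described here encode the non-collagen core of the basement membrane: the laminin chains Lama2, Lama4, Lama5, Lamb1, Lamb2 and Lamc1, the nidogens Nid1 and Nid2, and the heparan sulphate proteoglycans perlecan (Hspg2) and agrin (Agrn). They were taken by name from the deposited gene count table, which held 10 of these 10 names among 54532 genes, and all 10 passed the filter on low counts. The RNA came from primary cultures of mouse cortical astrocytes, in 6 libraries, 3 per genotype, sequenced after selection of polyadenylated RNA. Knockout cultures were made from pups labelled GFAP-Cre::NEOf/f, in which a Cre recombinase under the Gfap promoter is meant to delete the floxed Neo1 gene, and controls from littermates labelled only as control, whose library names (Neoff) point to the floxed allele. Neogenin, the product of Neo1, is a cell surface receptor whose ligands include repulsive guidance molecules and netrins, and the study's title asks how astrocytic neogenin bears on HIF and VEGFA driven vessel growth and MEGF10 driven engulfment. The titles number the 3 libraries of each genotype as biological replicates. The labels give no age beyond pup and no sex, and do not say which litter or culture a library came from. Whether each replicate was a separate culture is thus not stated, and spread within a genotype, and with it every p-value, may be technical in part.

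A basement membrane is a thin sheet of matrix on which epithelia, vessels and the brain surface rest. A laminin is a trimer of 1 α, 1 β and 1 γ chain, cross-shaped in many forms. It binds integrins and dystroglycan on the cell surface, where many laminins polymerise. Nidogens link the laminin γ1 chain to the collagen IV network, and perlecan and agrin add heparan sulphate chains that hold growth factors. In the brain, astrocyte endfeet contact a basement membrane around vessels and at the pial surface, and Lama2 is usually assigned to the astrocyte side of the vascular sheet, with Lama4 and Lama5 on the endothelial side.

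Total counts ran from 60819277 to 106081115 per library. Neo1 itself was at 189, 189 and 198 CPM (the count relative to library size, scaled by TMM, a trimmed mean of ratios between libraries) in control replicates 1, 2 and 3, and at 100.8, 105.99 and 105 CPM in knockout replicates 1, 2 and 3, a mean of 54.0% of control. The count pools all exons and does not measure the deletion itself. In a principal component analysis, knockout replicate 2 separated from its group along the second component (19.6% of the variance). Astrocyte markers were present in every library, with Gfap at 946 ± 20.8 CPM in controls and 431 ± 3.85 CPM in knockouts (SD, n = 3) and Aqp4 at 605 ± 35.5 and 879 ± 31.2 CPM.

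Within the nidogens, within the laminin β chains and within the laminin α chains, close relatives changed in opposite directions in knockout cultures. Nid1 rose 2.21-fold while Nid2 fell to 0.640 of control, Lamb1 rose 1.47-fold while Lamb2 fell to 0.788, and Lama4 rose 1.73-fold while Lama5 fell to 0.759. Lama2 and Hspg2 rose by smaller folds, 1.22 and 1.24. Changes at least as large as that of Lama2, in either direction, were seen in 47.3% of all genes tested. This share was 45.2% for Hspg2, 40.9% for Lamb2 and 35.5% for Lama5, and 24.3% for Lamb1, 19.9% for Nid2 and 14.5% for Lama4. Lamc1, the γ chain shared by the common laminins, and Agrn did not pass the test. In all, 5 of the 10 genes rose and 3 fell at an adjusted p under 0.05 (quasi-likelihood test of edgeR, Benjamini-Hochberg adjustment over all 18530 genes tested). Of all those genes 38.3% passed, 19.6% as higher and 18.7% as lower (3627 and 3466 genes, or 2921 and 4499 under scaling by total counts, where the 10 genes still gave 5 and 3). The median log2 fold change of the 10 was 0.16, against −0.0018 over all genes tested and 0.075 over the 6313 genes with at least as much annotated exon (5174 bases) as the shortest of the 10. The 8 genes that passed had no overlap between the 3 control and 3 knockout libraries, a property that 49.3% of all tested genes shared. Leaving out knockout replicate 2 left 5 higher and 3 lower.

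**Figure D1:**
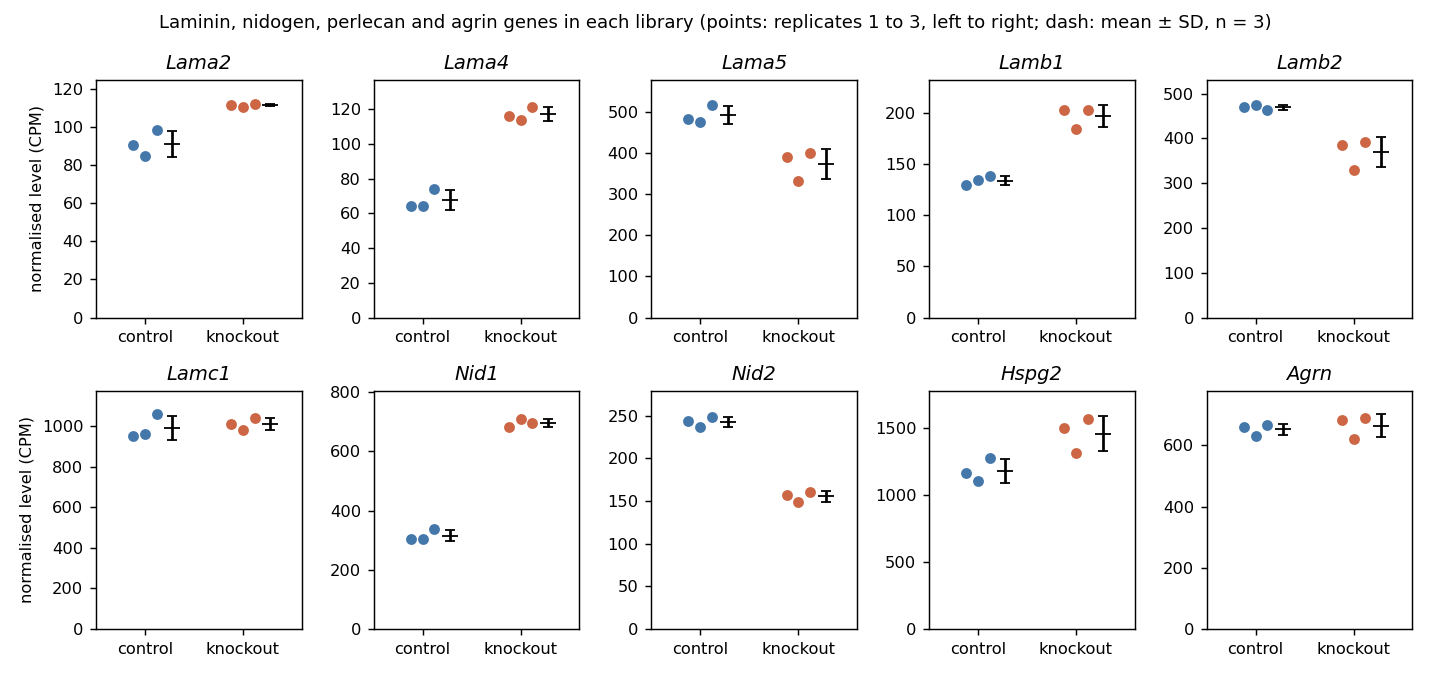
Normalised level (CPM, linear axis from 0) of each of the 10 genes in every library; points are single libraries, replicates 1 to 3 from left to right, and the dash with bars is the mean ± SD (n = 3 per genotype). Control and knockout points separate in 8 panels and overlap for Lamc1 and Agrn.

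For 4 genes of these opposing pairs the RefSeq promoter table (GRCm38.p6) held the start site, and the 250 bases before it are printed to show the start regions of 2 genes that rose and 2 that fell; Lamb1 and Lamb2 are the only full pair among them. The table matched 7 of the 10 genes. The windows are chr13:13437352-13437601 for Nid1 and chr12:31265043-31265292 for Lamb1, both on the plus strand and both of genes that rose, and chr2:180225860-180226109 (minus strand) for Lama5 and chr9:108479612-108479861 (plus strand) for Lamb2, both of genes that fell. Capitals mark matches, on either strand, to the GC box GGGCGG, to the 2 forms of the hypoxia response core, GCGTG and the alternative ACGTG, to the TEAD motif CATTCC, to the AP-1 motif TGANTCA and to the TATA motif TATAAA. All sequences read 5′ to 3′ on the gene's strand and end at the base before the RefSeq start. In GENCODE M21 the genes Lamb2, Nid1 and Lamb1 begin inside these windows, at 108479736, 13437551 and 31265234. Part of each of those windows thus lies within the annotated gene.
Nid1: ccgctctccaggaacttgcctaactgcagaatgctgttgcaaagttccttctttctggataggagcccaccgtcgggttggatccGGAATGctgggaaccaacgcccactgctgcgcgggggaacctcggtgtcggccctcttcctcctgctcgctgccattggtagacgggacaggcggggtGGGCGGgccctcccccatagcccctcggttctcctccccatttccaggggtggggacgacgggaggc
Lamb1: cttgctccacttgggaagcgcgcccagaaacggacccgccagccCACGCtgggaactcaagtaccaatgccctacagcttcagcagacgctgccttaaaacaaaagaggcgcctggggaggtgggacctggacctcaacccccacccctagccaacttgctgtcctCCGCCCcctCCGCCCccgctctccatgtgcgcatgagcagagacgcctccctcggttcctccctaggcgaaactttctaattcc
Lama5: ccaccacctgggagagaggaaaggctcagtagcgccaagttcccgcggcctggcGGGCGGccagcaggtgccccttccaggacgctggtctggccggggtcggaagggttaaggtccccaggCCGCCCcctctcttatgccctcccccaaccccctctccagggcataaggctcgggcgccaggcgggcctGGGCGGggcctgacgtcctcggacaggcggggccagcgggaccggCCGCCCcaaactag
Lamb2: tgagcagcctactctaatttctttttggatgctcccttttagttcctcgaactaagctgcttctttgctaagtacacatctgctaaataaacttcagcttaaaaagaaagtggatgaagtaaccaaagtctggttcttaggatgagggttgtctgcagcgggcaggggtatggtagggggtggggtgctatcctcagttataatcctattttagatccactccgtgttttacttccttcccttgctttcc
The Lama5 window held 4 GC boxes, Lamb1 2, Nid1 1 and Lamb2 0, while 32.7% of all 32851 windows of this length in the table held at least 1. GC content was 72.4% for Lama5, 64.4% for Nid1, 62.0% for Lamb1 and 43.6% for Lamb2, against a median of 52.4% over all windows. Lamb1 held 1 match to GCGTG (28.2% of all windows have one) and Nid1 held 1 match to CATTCC (12.6%). None of these 4 windows held the alternative hypoxia core, the AP-1 motif or the TATA motif, which 16.6%, 6.75% and 12.4% of all windows do. A match describes letters only and is not a bound site. Lama5 and Lamb2, which both fell, had the highest and the lowest GC content of the 4 windows.

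Nidogens are the glycoproteins that bridge laminin and collagen IV. Nid1 (ENSMUSG00000005397, GRCm38 chromosome 13, 13437551 to 13512269) was at 305, 304 and 337 CPM in controls and 682, 710.1 and 696 CPM in knockouts. Each knockout library was about 2 times as high as any control library, and the spread within a genotype was small beside that gap. This amounted to a log2 fold change of 1.14 ± 0.05 (SE; edgeR adjusted p = 1.8e-12), and 7.29% of all tested genes changed by at least that much in either direction. Nid2 (ENSMUSG00000021806, chromosome 14, 19751265 to 19811787) was at 244, 237 and 248 CPM in controls and 157, 149 and 161 CPM in knockouts. All 3 knockout libraries lay below all controls, with a log2 fold change of −0.64 ± 0.05 (SE; edgeR adjusted p = 3.9e-09). Nid2 shares 437 bases, 8.45% of its exons, with Rtraf on the opposite strand, and no source used here states whether counting used strand. Rtraf was at 70.9 ± 4.24 CPM in controls and 72.5 ± 3.04 CPM in knockouts (SD, n = 3) and was not called. Nid1 shares 225 bases at 99.6% identity with Gm2399, which was at 0.418 ± 0.266 and 0.539 ± 0.134 CPM.

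Per kb of annotated exon, Nid1 and Nid2 were near each other in control cultures, at 45.4 ± 2.70 and 47.0 ± 1.09 CPM per kb (SD, n = 3). In knockout cultures they stood at 100.2 ± 2.05 and 30.1 ± 1.196 CPM per kb. Nid1 thus made up 49.1% ± 1.06 of the nidogen RNA per kb in control and 76.9% ± 0.991 in knockout libraries. The 2 nidogens together went from 92.4 ± 3.63 to 130.3 ± 1.497 CPM per kb, a ratio of 1.41, with no overlap between genotypes (exact permutation test, two-sided, p = 0.10, the smallest that 3 against 3 allows). The log2 ratio of Nid2 to Nid1 counts within a library, which does not depend on how libraries are scaled, was −0.32, −0.36 and −0.44 in control and −2.11, −2.26 and −2.12 in knockout libraries, a difference of −1.79. For this and 6 further ratios the exact permutation p was 0.10 each, as was the value adjusted over the 7. For Nid2 to Nid1, Lamb2 to Lamb1 and Lama5 to Lama2 this outcome was fixed beforehand. The genes of each of these ratios had already moved in opposite directions without overlap, so the ratios add no separate test.

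The α chains carry the globular domains by which laminin binds its receptors. Lama4 (ENSMUSG00000019846, chromosome 10, 38965515 to 39110188), the α chain of laminin-411 and typical of vessels, was at 64.3, 64.0 and 74.3 CPM in controls and 116, 114 and 121 CPM in knockouts. The lowest knockout library was well above the highest control, control replicate 3. On the log2 scale it changed by 0.79 ± 0.06 (SE; edgeR adjusted p = 9.4e-09). Lama2 (ENSMUSG00000019899, chromosome 10, 26980036 to 27619758, minus strand), the α chain lost in a congenital muscular dystrophy, was at 90.2, 84.7 and 98.3 CPM in controls and 112, 111 and 112 CPM in knockouts. The knockout libraries were nearly identical, and the controls lay below them with a wider spread. On the log2 scale it changed by 0.29 ± 0.06 (SE; edgeR adjusted p = 0.00043). Lama5 (ENSMUSG00000015647, chromosome 2, 180176373 to 180225859, minus strand), the α chain of laminin-511, was at 483, 476 and 515 CPM in controls and 389, 331 and 398 CPM in knockouts. All knockout libraries were lower than all controls, and knockout replicate 2 was the lowest. On the log2 scale it changed by −0.40 ± 0.06 (SE; edgeR adjusted p = 6.4e-05) with that library and −0.32 without it.

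Lama5 was the main α chain per kb in both genotypes, at 79.5% ± 0.582 of the 3 α chains in control and 66.4% ± 1.84 in knockout libraries. The share of Lama4 went from 10.3% ± 0.376 to 19.7% ± 0.927. These shares rest on the length used: with the longest transcript of each gene in place of all annotated exons, Lama5 was 67.7% ± 0.787 in control and 51.3% ± 2.02 in knockout libraries. The Lama4 to Lama2 log2 count ratio differed by 0.51 between genotypes (−0.49, −0.40 and −0.40 in control, 0.06, 0.04 and 0.12 in knockout libraries). The Lama5 to Lama2 log2 ratio was 2.42, 2.49 and 2.39 in control and 1.801, 1.58 and 1.83 in knockout libraries. Its fall of 0.69 left no overlap between genotypes, which the values of the single genes already implied.

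The β chains occupy the second arm of the trimer. Lamb1 (ENSMUSG00000002900, chromosome 12, 31265234 to 31329644), the widely used β chain, was at 129, 134 and 138 CPM in controls and 203, 185 and 203 CPM in knockouts. The lowest knockout library, replicate 2, was above every control. On the log2 scale it changed by 0.56 ± 0.05 (SE; edgeR adjusted p = 8.8e-08). Lamb2 (ENSMUSG00000052911, chromosome 9, 108479736 to 108490530), the β chain of neuromuscular synapses and the kidney filter, was at 469, 475 and 463 CPM in controls and 386, 330.3 and 393 CPM in knockouts. The control libraries were close together, and the knockout libraries were all lower and spread more, with replicate 2 the lowest. On the log2 scale it changed by −0.34 ± 0.05 (SE; edgeR adjusted p = 8.5e-05), and −0.27 without knockout replicate 2. Lamb2 stayed the more abundant β chain per kb, with 85.1% ± 0.540 of the β RNA in control and 75.4% ± 0.769 in knockout libraries. With the longest transcript of each gene in place of all annotated exons, the Lamb2 share was 78.3% ± 0.724 and 65.8% ± 0.930. The Lamb2 to Lamb1 log2 ratio was 1.86, 1.83 and 1.74 in control and 0.93, 0.84 and 0.95 in knockout libraries, a fall of 0.90.

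Lamc1 (ENSMUSG00000026478, chromosome 1, 153218922 to 153332786, minus strand), the γ1 chain that holds the nidogen-binding site, was at 949.9, 961 and 1060.3 CPM in controls and 1013, 983 and 1043 CPM in knockouts. The genotypes overlapped. Its log2 fold change was 0.03 with a 95% interval of −0.06 to 0.13, so a change of more than about 0.13 upward lay outside the interval (adjusted p = 0.63 by edgeR). Per kb, the γ chain exceeded the summed α chains and the summed β chains in each library. The α sum was 54.3 ± 2.75 CPM per kb in control and 49.2 ± 3.51 in knockout cultures, the β sum 90.6 ± 0.929 and 80.6 ± 6.72, and Lamc1 119.7 ± 7.34 and 122 ± 3.66 (SD, n = 3). Relative to Lamc1, the log2 ratio of the β sum differed by −0.21 between genotypes and that of the α sum by −0.18, both without overlap. Both depended on the length used: with the longest transcript of each gene the differences were −0.13 for the β sum (exact permutation p = 0.30) and −0.037 for the α sum (exact permutation p = 0.60). Annotated exons sum to 16338 and 12068 bases for Lama2 and Lama4, and their longest transcripts have 9614 and 6046 bases.

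**Figure D2:**
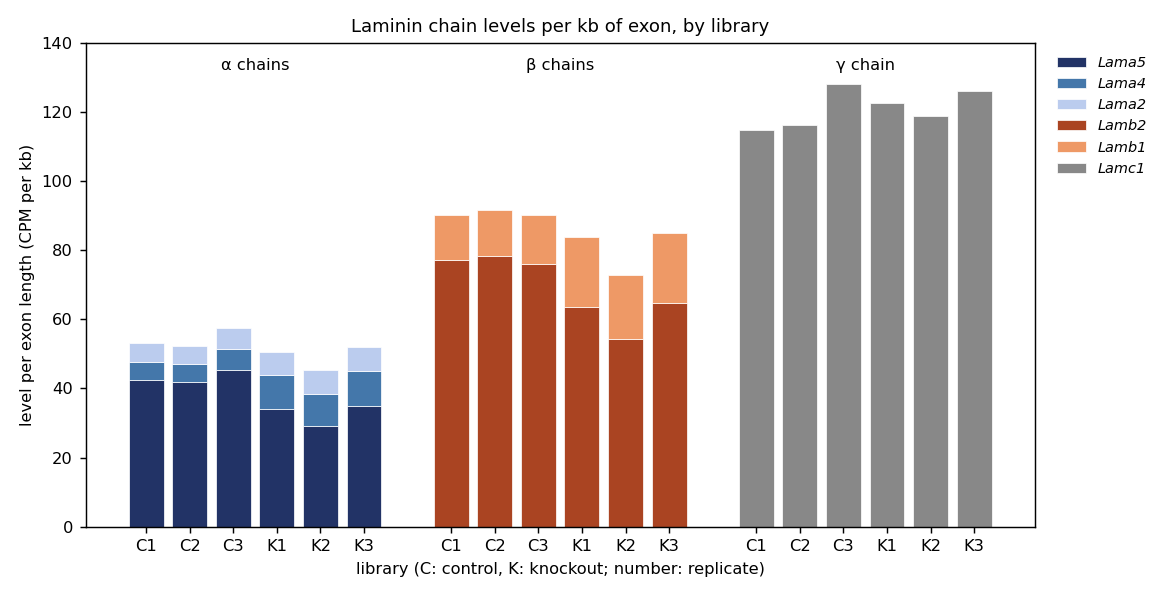
Level per kb of annotated exon (CPM per kb, linear axis from 0) of each laminin chain, stacked by chain class, in each library (C1 to C3 control, K1 to K3 knockout). The Lama4 and Lamb1 segments are thicker in K1 to K3 than in C1 to C3, the Lama5 and Lamb2 segments shorter, and Lamc1 overlaps between genotypes.

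**Figure D3:**
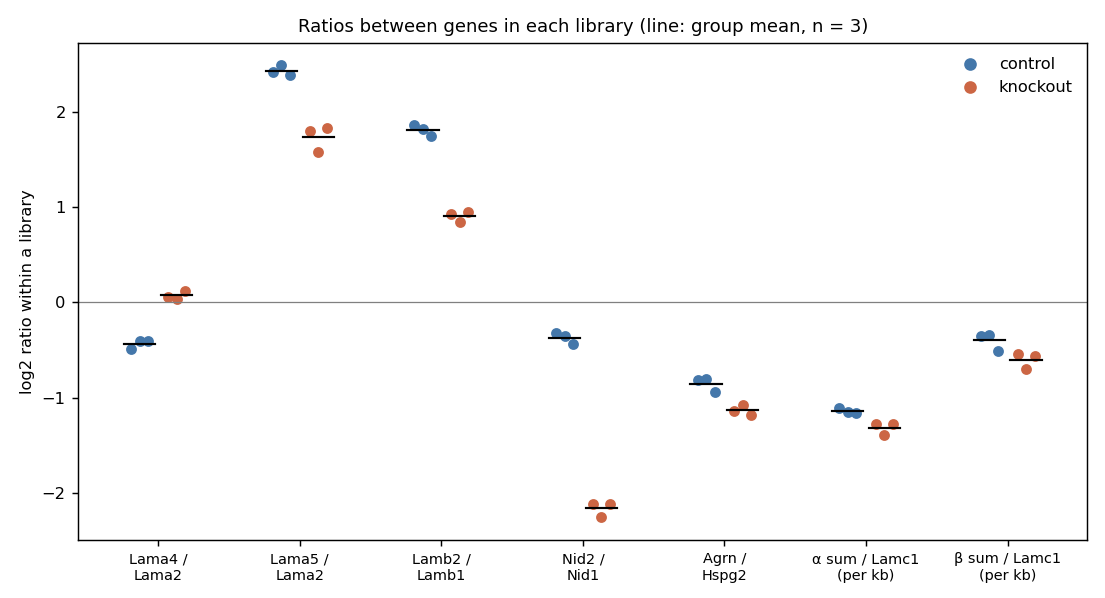
Log2 ratio of counts between 2 genes (or of summed counts per kb, last 2 columns) within each library; points are libraries and lines are group means (n = 3). Control and knockout points do not overlap in any of the 7 columns, and Nid2 to Nid1 has the widest gap, −1.79. For Nid2 to Nid1, Lamb2 to Lamb1 and Lama5 to Lama2 the lack of overlap follows from the single-gene values.

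Perlecan and agrin are large secreted proteoglycans. Hspg2 (ENSMUSG00000028763, chromosome 4, 137468769 to 137570630) was at 1164, 1103 and 1275 CPM in controls and 1500.2, 1313 and 1566 CPM in knockouts. Knockout replicate 2 exceeded control replicate 3 by a small margin, and the other knockout libraries stood clear of all controls. On the log2 scale it changed by 0.31 ± 0.06 (SE; edgeR adjusted p = 0.0021), and 0.38 without knockout replicate 2. Agrn (ENSMUSG00000041936, chromosome 4, 156165290 to 156197488, minus strand), which clusters acetylcholine receptors at the nerve-muscle synapse and binds dystroglycan, was at 659.5, 631 and 665 CPM in controls and 682, 620.1 and 690.4 CPM in knockouts. These values overlapped, with a log2 fold change of 0.03 and a 95% interval of −0.07 to 0.12 (adjusted p = 0.69 by edgeR). The Agrn to Hspg2 log2 ratio was −0.82, −0.81 and −0.94 in control and −1.14, −1.08 and −1.18 in knockout libraries, a fall of 0.28. The count pools all forms of Agrn, so splice forms that differ in receptor clustering could not be told apart.

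**Figure D4:**
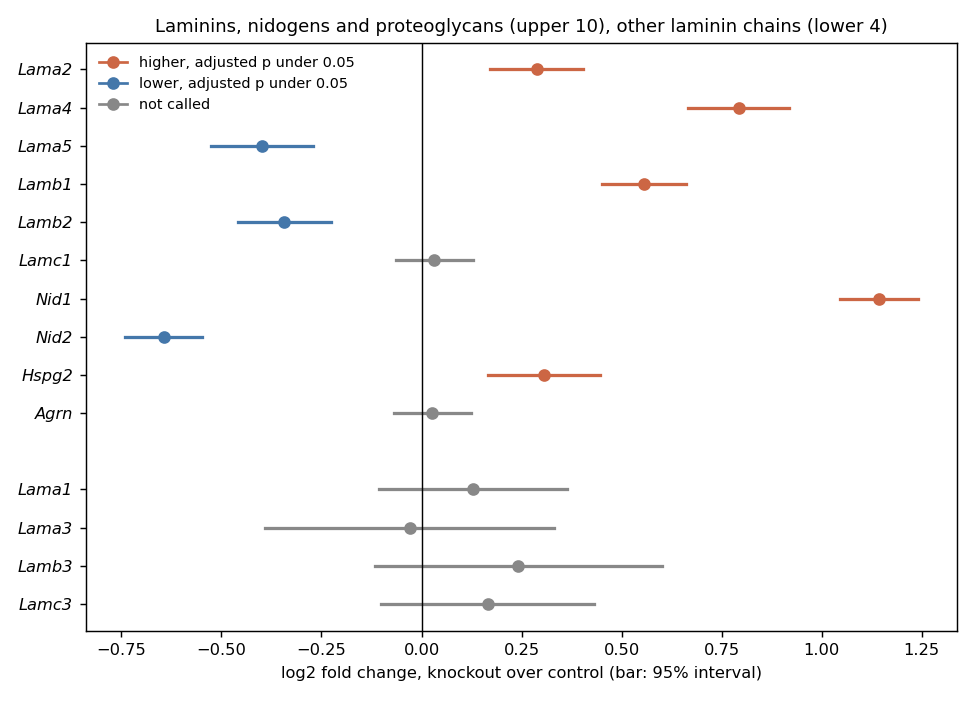
Log2 fold change of knockout over control (x axis) with its 95% interval for the 10 genes above and for 4 further laminin chains below; colour gives the edgeR call at an adjusted p under 0.05. Nid1 lies farthest to the right at 1.14 and Nid2 farthest to the left at −0.64, and none of the 4 further chains was called.

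Knockout replicate 2 was the lowest knockout library for 9 of the 10 genes and the highest for Nid1; over all tested genes it was the lowest for 40.5%. Without it each of the 8 calls held, with log2 fold changes from −0.61 for Nid2 to 1.13 for Nid1. Fewer cells of one type and less RNA per cell cannot be told apart in these bulk samples.

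Ranked per kb of annotated exon, control cultures had Lamc1 first, then Hspg2, Lamb2, Agrn, Nid2, Nid1, Lama5, Lamb1, Lama4 and Lama2. Of these neighbours, Hspg2 and Lamb2, Nid2 and Nid1, Nid1 and Lama5, and Lama4 and Lama2 had overlapping libraries. In knockout cultures Nid1 took the third place, with libraries that overlapped those of Hspg2 (102 ± 9.18 CPM per kb), and Nid2 the seventh, overlapping Lama5 (32.7 ± 3.18 CPM per kb). The order of close neighbours depended on the length used. Per kb of the longest transcript, control means were 83.4 for Lamb2 and 83.2 for Hspg2, and 51.7 for Nid1 and 49.9 for Nid2. In knockout cultures Nid1 (114 CPM per kb of the longest transcript) then stood above Hspg2 (103), and Nid2 (31.9) below Lamb1 (34.0) and Lama5 (32.7).

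Markers of other cells moved beside these genes, in a comparison where 19.6% of all genes tested were called higher and 18.7% lower. Of 9 tested fibroblast and meningeal markers 8 rose and 0 fell (0 lower also at an unadjusted p under 0.05 by edgeR, and by DESeq2 and limma-voom), and their summed level went from a range of 3037 to 3225 CPM in control to a range of 4696 to 5323 CPM in knockout libraries. Col1a1 rose from 1949.8 ± 80.7 to 2976 ± 282 CPM and Dcn from 14.7 ± 0.934 to 43.4 ± 0.468 CPM (SD, n = 3), while the meningeal gene Slc6a13 and the fibroblast gene Dpt had at most 15 and 10 counts in any library and were not tested. Of 8 tested endothelial markers 3 rose and 0 fell (0 lower also unadjusted by edgeR and by DESeq2 and limma-voom). Their sum ran from 84.5 to 90.3 CPM in controls and from 141 to 142 CPM in knockout libraries, carried by Flt1 and Cdh5, whereas Pecam1 was at 1.06 ± 0.134 and 1.40 ± 0.826 CPM, Tie1 at 0.213 and 0.215 CPM, and Cldn5 had at most 14 counts. Of 9 mural cell markers 3 rose, Pdgfrb among them (80.3 ± 3.17 to 115 ± 3.56 CPM), and 3 fell. Their sums were 4087 to 4266 CPM in controls and 3085 to 3115 CPM in knockout libraries. Acta2 carried these sums and their fall, at means of 3850 CPM in controls and 2685 CPM in knockouts. Myh11 (means of 15.4 and 8.96 CPM) and Tagln (16.3 and 9.83 CPM) also fell. Cspg4 (means of 152 and 185 CPM) and Notch3 (71.1 and 81.0 CPM) rose with Pdgfrb. Microglia markers (8 of 10 fell, 1 rose) summed to between 85.1 and 86.9 CPM in controls and between 50.6 and 56.7 CPM in knockout libraries, with Aif1 at means of 1.09 and 0.171 CPM. Choroid plexus markers (4 of 6 fell, 1 rose) summed to between 56.0 and 57.8 CPM and between 72.3 and 77.1 CPM, and of the astrocyte markers 7 of 12 fell and 2 rose, with sums of 3034 to 3099 CPM and 2747 to 2875 CPM. Transthyretin (Ttr), the defining choroid plexus gene, had 1219, 1353 and 2048 counts in controls and 1, 0 and 2 counts in knockouts. Enpp2, the choroid plexus list's only higher gene, rose from 18.5 ± 0.508 to 59.0 ± 2.57 CPM. None of the listed markers was at 0 in all libraries. Their part in the changes of laminins, nidogens and perlecan was not tested.

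The other 5 laminin chains build the epithelial and rarer trimers. None was called in either direction by edgeR, 0 passed at an unadjusted p under 0.05, and DESeq2 and limma-voom called 0. Of all genes tested 38.3% were called, 19.6% higher and 18.7% lower. With only 5 genes, a count of 0 does not show that these chains were unchanged. The embryonic α chain Lama1 (9.001 ± 0.342 and 9.85 ± 1.04 CPM) and Lamc3 (8.70 ± 1.31 and 9.77 ± 1.05 CPM) were low, as were Lama3 (3.80 ± 0.692 and 3.74 ± 0.236 CPM) and Lamb3 (4.24 ± 0.459 and 5.01 ± 1.03 CPM). Lamb3 was called higher without knockout replicate 2 (log2 fold change 0.40), and 1 chain lower under scaling by total counts. Against Lamc1 at 119.7 CPM per kb, Lamc3 stood at 1.43 CPM per kb in control cultures.

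Of 14 laminin and agrin receptors tested, 8 fell and 4 rose, with a median log2 fold change of −0.29 against −0.0018 over all genes. Among all genes tested 18.7% fell and 19.6% rose. Musk, the muscle kinase of the agrin receptor, had at most 16 counts in a library and was not tested. Itga7 and Itga3, subunits of the main laminin-binding integrins, fell, Itga7 from 228 ± 4.79 to 155 ± 4.58 CPM and Itga3 from 301 ± 10.2 to 203 ± 8.24 CPM (SD, n = 3). The agrin receptor gene Lrp4 fell from 96.5 ± 4.23 to 66.0 ± 1.45 CPM. Itga2, which pairs with β1 to bind collagen and laminin, rose from 25.5 ± 3.33 to 60.9 ± 1.13 CPM (log2 fold change 1.25, SE 0.08, adjusted p = 8.3e-10 by edgeR). Dag1, dystroglycan, named here after its values were seen, was at 731, 721 and 758 CPM in controls and 580.2, 573 and 591 CPM in knockouts. It fell with a log2 fold change of −0.34 ± 0.04 (SE; edgeR adjusted p = 2.0e-06) and had no overlap between genotypes. Under scaling by total counts 2 receptors in place of 4 were called higher.

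Dystroglycan binds laminin only through a sugar chain built by a set of glycosyltransferases, and inside the cell it is joined to dystrophin or utrophin. Of 16 such sugar-building genes tested, 6 fell and 0 rose (1 higher at an unadjusted p under 0.05 by edgeR, 0 by DESeq2 and limma-voom), with a median log2 fold change of −0.12. B4gat1, which primes the laminin-binding repeat, fell from 81.5 ± 5.02 to 45.4 ± 0.809 CPM (SD, n = 3), though 85.3% of its exon bases overlap another annotated gene on the same strand, AC124502.3. Pomt1 and Pomgnt1, of the same list, fell, Pomt1 from 22.5 ± 0.518 to 16.9 ± 0.323 CPM and Pomgnt1 from 104 ± 1.12 to 88.2 ± 2.14 CPM. The dystrophin complex split, with 4 of 11 higher and 3 lower (median −0.065). For both lists, the shares over all genes tested were 19.6% higher and 18.7% lower. Utrn, utrophin, rose from 210.2 ± 25.4 to 282 ± 10.6 CPM. Dystrobrevin β (Dtnb) fell from 29.4 ± 2.12 to 18.9 ± 0.646 CPM and the sarcoglycan gene Sgce from 52.4 ± 2.14 to 42.8 ± 2.14 CPM. Without control replicate 2 the complex had 2 called higher, and without knockout replicate 2 or under total-count scaling 5 called lower.

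Heparan sulphate enzymes, which make and trim the chains of perlecan and agrin, numbered 8 higher and 4 lower of 21 (median 0.086), with 5 called higher without control replicate 2. All genes tested gave 19.6% higher and 18.7% lower, so the count of lower enzymes was near the share of all genes. Ext1, of the chain-building polymerase, rose from 214 ± 4.26 to 338 ± 8.97 CPM, Fam20b, a kinase of the linker sugar, from 122 ± 3.51 to 158 ± 9.52 CPM and the sulphatase gene Sulf1 from 129.6 ± 5.94 to 175 ± 2.19 CPM. Hs3st1, a sulphotransferase, fell from 20.6 ± 1.68 to 11.6 ± 1.96 CPM (SD, n = 3).

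Collagen IV and other basement membrane proteins moved both ways, 6 higher and 7 lower of 22 tested, with a median log2 fold change of −0.012. The shares over all genes tested were 19.6% higher and 18.7% lower. Col4a1, the major collagen IV chain, rose from 1340.1 ± 16.3 to 1805 ± 99.3 CPM and Fbln2, a fibulin that binds laminin and nidogen, from 269.6 ± 2.77 to 417 ± 8.34 CPM. Smoc2, a SPARC-related matrix protein, rose from 25.5 ± 0.947 to 74.0 ± 0.477 CPM (log2 fold change 1.54, SE 0.06). Ntn4, a netrin that binds the laminin γ1 arm and hinders laminin polymerisation, fell from 75.9 ± 0.246 to 39.3 ± 1.73 CPM (−0.95, SE 0.05). Their adjusted p-values were 6.7e-13 for Smoc2 and 2.5e-10 for Ntn4 by edgeR.

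**Figure D5:**
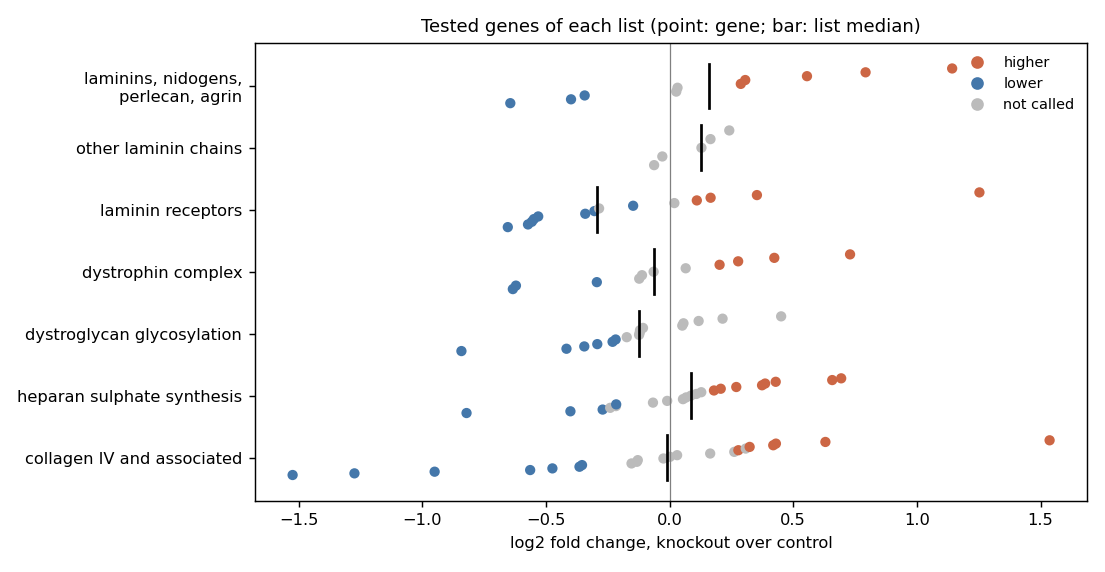
Log2 fold change of knockout over control (x axis) for each tested gene of 7 lists (rows); colour gives the edgeR call and the black bar the list median. Laminin receptors have 8 lower and 4 higher genes, dystroglycan glycosylation 6 lower and 0 higher, and heparan sulphate enzymes 8 higher and 4 lower. Over all genes tested 19.6% were called higher and 18.7% lower.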

How the data were processed

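The authors deposited 1 table of raw counts per gene for 6 libraries, for which the submitters' processing notes name HISAT2 2.2.1, featureCounts 2.0.6 and the builds GRCm38 and mm10. No source used here gives the annotation release, strand setting or rule for multi-mapping reads. Library columns were matched by name and groups taken from titles. No 2 libraries of a group agreed within sampling noise (chi-square per gene 5.98 or more).

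Counts were filtered by filterByExpr (minimum count 10, minimum total 15), scaled by TMM and tested with edgeR 4.0.16 in R 4.3.3 (robust quasi-likelihood test, genotype alone, two-sided, threshold 0.05, Benjamini-Hochberg adjustment). On simulated counts it recovered 85 of 100 genes changed 2-fold and 75 of 100 changed 1.5-fold, with 10 false calls among 17902 genes. Only 200 genes were changed there, all above a minimum mean count, while 38.3% of genes were called in these data. The simulation therefore does not show how the test performs at that share. Positions and exon lengths came from GENCODE M21 of the same build, and near-identical copies (at least 90% identity over 100 bases) from BLAST 2.17.0. Ratios between genes were tested by exact permutation over samples.

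All 10 genes and Neo1 are named, with up to 4 called genes of the smallest p per pathway list, every gene of a list of 5 or fewer, and defining markers. Some genes that this rule takes are not reported here. The 10 genes and the lists were chosen with earlier results of these data known. Alternatives were other scalings, DESeq2 1.42.0, limma-voom (limma 3.58.1), other filters, no robust option, a replicate block, a threshold of 0.01, each library left out, and other length measures, some of the last chosen after seeing the data.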

Additional observations from a re-analysis of the deposited data

How the results depend on the processing

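The calls on the laminins, nidogens, perlecan and agrin held under all 16 other settings of the fit: 5 higher and 3 lower each time, with log2 fold changes of 1.08 to 1.19 for Nid1, −0.71 to −0.61 for Nid2, 0.73 to 0.86 for Lama4, 0.22 to 0.34 for Lama2, −0.46 to −0.32 for Lama5, 0.49 to 0.60 for Lamb1, −0.41 to −0.27 for Lamb2 and 0.24 to 0.38 for Hspg2. The uncalled Lamc1 and Agrn ran from −0.033 to 0.080 and from −0.038 to 0.074. Scaling by total counts moved the median of all genes to −0.067 and the split of all calls from 3627 higher and 3466 lower to 2921 and 4499. Under it the dystrophin complex had 5 called lower, laminin receptors 2 called higher and other laminin chains 1 called lower. Leaving out single libraries gave 2 to 4 dystrophin complex genes higher and 3 to 5 lower, 5 to 8 heparan sulphate genes higher and 0 to 1 other laminin chains higher; the cause was not tested. Of 1423 values for 89 pathway genes under other settings, 44 lost and 24 gained a call and 0 reversed. With a replicate block 3501 genes were higher and 3383 lower and no count for a list moved by over 1.5 times. Deviations from the group mean were nearly uncorrelated between same-numbered libraries (−0.0082 to 0.019). With 3 libraries per group this cannot show whether same-numbered libraries shared a litter or culture, so pairing stays unknown. The block's sign-flip p for each ratio was 0.25, the smallest 3 pairs allow. Each ratio kept its direction under every setting tried.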
